A study of Rattus norvegicus with 30 samples.

Results

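Control cultures of rat cortical neurons were followed over the first of 2 sampled intervals, which ran from day 6 to day 12 after transduction with AAV9 carrying an empty vector (EV). The 5 EV libraries of day 12 were set against the 5 EV libraries of day 6, which are 10 of the 30 libraries of the series, and every gene that reached a normalized count of 10 in 5 or more of the 30 libraries was included. These were 12911 of the 32883 genes in the table, and the 2 vectors were left out. Both groups came from primary cultures of the cortex of Sprague Dawley rat embryos that were transduced on day 5 in vitro, so the day 12 cultures were at day 17 in vitro and the day 6 cultures at day 11. The EV vector drives no α-synuclein (αSyn) and shares its promoter, CAG, with the αSyn 3K vector of the other 15 libraries (5 each at days 6, 12 and 19), in which a toxic variant of human αSyn is overexpressed. A further 5 EV libraries were from day 19. The column headings of both groups also carry PBS, and no culture without a vector was analysed here, so time in culture and time since transduction cannot be told apart. No label says that the 5 libraries of a group came from separate cultures, so p-values measure the spread between libraries, which may be technical. For single genes this spread was pooled within the 6 groups of all 30 libraries.

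Neurons taken from embryonic cortex are postmitotic but immature. In culture they first extend neurites, with high levels of tubulins, stathmins and other growth cone proteins, and then build synapses. During this time they exchange early subunits of receptors and transporters for later ones, including the chloride transporters that set the sign of the response to GABA. Cultures of this kind also hold glial progenitors, which divide and give rise to astrocytes and to cells of the oligodendrocyte lineage. RNA was measured in bulk, so a cell type that became more frequent and one that held more RNA per cell cannot be told apart.

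The labelled cell type was checked against marker lists before the comparison. The summed normalized count of 19 pan-neuronal genes was 58665 to 60948 in the day 12 libraries and 54103 to 60054 in the day 6 libraries. Markers of other brain cells were also present and moved between the days, since the summed level of 39 astrocyte genes was 111056 to 119793 in the day 12 libraries and 59693 to 70754 in the day 6 libraries, without overlap. The sum over 24 genes of the oligodendrocyte lineage was 11423 to 14000 in the day 12 libraries and 8110 to 8721 in the day 6 libraries, again without overlap. The sum over 48 genes of progenitors and the cell cycle was 8486 to 8894 in the day 12 libraries and 8211 to 8643 in the day 6 libraries. Markers of microglia and of vascular and meningeal cells had sums far below these. The endothelial marker Cldn5 and the microglial marker Cx3cr1 were at 0 in all 10 libraries, and the sum over 23 microglial genes was 33.6 to 52.6 in the day 12 libraries and 2.16 to 12.7 in the day 6 libraries, most of it from Lyz2 at day 12 (28.7 to 42.5 at day 12 and 0 to 5.23 at day 6). The sum over 20 vascular and meningeal genes was 175 to 248 in the day 12 libraries and 117 to 169.8 in the day 6 libraries, without overlap. Lyz2 was the 1 microglial gene tested and was called higher. It was below 10 in every day 6 library of EV (0 to 5.23) and of 3K (0 to 6.32). It passed the filter only through later days, where it was high, so the filter favored this call. Another 5 genes of the list were at 0 in all 10 libraries. Of 5 vascular and meningeal genes tested 2 were higher and 0 lower (4 higher without day 12 replicate 1, 0 with a smallest normalized count of 50). These 2 had day 6 means below 10 and passed the filter largely through later days. The 1 gene of choroid plexus and ependyma tested was not called.

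The libraries held 5291615 to 6840758 recovered reads at day 12 and 4747019 to 6961621 at day 6. Mitochondrially encoded genes took 4.002 ± 0.385% of reads at day 12 and 3.48 ± 0.657% at day 6 (SD, n = 5 each, exact two-sided permutation test, p = 0.159). More genes reached a normalized count of 10 in every day 12 library (12250 to 12391) than in any day 6 library (12010 to 12193), with an exact permutation p of 0.00794, the smallest that 5 against 5 allows, and of 0.0556 after adjustment over the 7 library measures compared. The normalized count of the empty vector was 2677 ± 101 at day 12 and 2170 ± 265 at day 6 (SD, n = 5 each, exact permutation p = 0.0238, adjusted 0.0556). Between 133 and 180 normalized counts at day 12 and 84.2 and 166 at day 6 were assigned to the αSyn 3K vector in these EV libraries. The days separated: over log2 values the shortest distance between a day 12 and a day 6 library was 72.6, and the longest within a group was 60.2 at day 12 and 62.9 at day 6. Day 6 replicate 3 had the lowest share of mitochondrial reads (2.47%) and of reads in the 100 most abundant genes (19.6%) of the 10 libraries.

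In the EV cultures 3013 genes were higher at day 12 than at day 6 (23.3% of the 12911 tested) and 2732 were lower (21.2%), together 5745 genes (44.5%), by limma with a Benjamini-Hochberg adjusted p under 0.05. Most of these differences were small. The median log2 fold change was 0.48 among the genes that rose, -0.34 among those that fell and 0.00 over all genes tested. A change of 2-fold or more was called for 458 genes that were higher (3.55%) and for 151 that were lower (1.17%), and a change of 4-fold or more for 44 and 12 genes. Every day 12 library was above every day 6 library for 1955 genes (15.1%) and below for 1802 (14%). The genes that rose took 31.6 to 32.4% of the reads of the day 12 libraries and 24.1 to 25.2% of those of the day 6 libraries. The genes that fell took 28.1 to 28.7% of the reads at day 12 and 35.2 to 36.4% at day 6, and both differences follow in part from how the genes were selected. All fold changes below are on the scale of log2(normalized count + 1) and are given with their SE, and they understate the change of genes with few reads. Means are given ± SD over the 5 libraries of a day.

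The 12 steepest rises among named genes whose normalized counts averaged 50 or more included genes of synaptic activity and of calcium handling. Arc, an immediate early gene whose protein acts at synapses, had normalized counts of 116, 88.7, 114, 155 and 121 in the 5 EV day 12 libraries, against 38, 10.5, 10.8, 22.5 and 14.4 in the 5 EV day 6 libraries. All 5 day 12 libraries lay above the highest day 6 library, and the log2 fold change was 2.71 ± 0.24, adjusted p = 4.37e-11. The transcription factor gene Egr4 gave 89.2, 107, 88.7, 128 and 99.6 at day 12 and 14.3, 13.9, 17.3, 21.2 and 12.5 at day 6 (2.63 ± 0.21, adjusted p = 9.63e-12). Its groups were likewise apart. Atp2b4, a calcium pump of the plasma membrane, was at 993, 1011, 935, 859.8 and 1047 in the 5 EV day 12 libraries, against 229, 152, 204, 186 and 208 in the 5 EV day 6 libraries (2.31 ± 0.08, adjusted p = 2.19e-20). The spread within each day was small beside the gap between the days. Hpca, which encodes the neuronal calcium sensor hippocalcin, measured 1057, 961, 1027, 1166 and 936 at day 12 and 281, 271, 271, 271 and 272 at day 6 (1.91 ± 0.08, adjusted p = 6.65e-19). Pfkp, the platelet isoform of the glycolytic enzyme phosphofructokinase, had 869, 935, 852, 897 and 945 at day 12 and 220.4, 237, 257, 255 and 238 at day 6 (1.89 ± 0.06, adjusted p = 5.17e-21). Both genes varied by less among libraries of a day than between the days.

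A further 6 of the 12 genes with the largest rises had log2 fold changes between 1.86 for Fibcd1 and 2.05 for Lynx1. Lynx1, whose membrane-anchored product modulates nicotinic acetylcholine receptors, averaged 248 ± 17.1 at day 12 and 59.7 ± 9.1 at day 6 (SD, n = 5 each). Its log2 fold change was 2.05 ± 0.10, adjusted p = 1.84e-17. Wfs1, an endoplasmic reticulum membrane protein mutated in Wolfram syndrome, averaged 1047 ± 56.6 at day 12 and 256 ± 35.2 at day 6, with a log2 fold change of 2.03 ± 0.09, adjusted p = 2.92e-18. Dgkg, a diacylglycerol kinase, averaged 264 ± 23.3 at day 12 and 66.5 ± 6.34 at day 6 (1.97 ± 0.10). Pdzd2, a protein with PDZ domains, and Hivep3, a zinc finger factor, changed by 2.00 ± 0.14 and 1.92 ± 0.16 on the log2 scale.

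The 12 steepest falls by the same rule included genes of growing and migrating neurons. Gpc2, a glypican of growing axons, was at 23.7, 27.8, 37, 46.6 and 30.2 in the 5 EV day 12 libraries, against 290.5, 288, 226, 263 and 258 in the 5 EV day 6 libraries. The days did not overlap, and the log2 fold change was -3.00 ± 0.25, adjusted p = 2.66e-11. Dcx, which encodes the microtubule-associated protein doublecortin of migrating neurons, had 306, 246, 196, 196 and 271 at day 12 and 1075, 1080, 856, 739 and 992 at day 6 (-1.97 ± 0.16, adjusted p = 1.197e-11). St8sia2, a polysialyltransferase that modifies NCAM during development, had 81.9, 87, 102, 91 and 80.6 at day 12 and 309.9, 240.5, 299, 303 and 246 at day 6 (-1.65 ± 0.16, adjusted p = 4.16e-10). For both, the highest day 12 library was far below the lowest day 6 library. Nts, the precursor of the peptide neurotensin, fell to 14.6, 27, 12.3, 17.3 and 23.5 at day 12, against 86.1, 114, 99.3, 109.9 and 89.2 at day 6 (-2.38 ± 0.37, adjusted p = 2.904e-06). Islr2, a membrane protein with leucine-rich repeats that takes part in axon extension, was at 21.6 ± 3.15 at day 12 and 96.5 ± 20.2 at day 6 (SD, n = 5 each), a log2 fold change of -2.09 ± 0.29, adjusted p = 3.86e-07. The remaining genes of the 12 with the largest falls were Rnf152 (-2.16 ± 0.19), Dlx6as (-1.84 ± 0.12), Nkd2 (-1.81 ± 0.15), Igsf9 (-1.79 ± 0.28), Sdc1 (-1.77 ± 0.17), Ppp1r18 (-1.61 ± 0.12) and Lgi2 (-1.60 ± 0.10). Dlx6as is read from the strand opposite Dlx6, and the cDNA kit does not mark the strand, so reads of this pair of genes cannot be told apart.

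**Figure D1:**
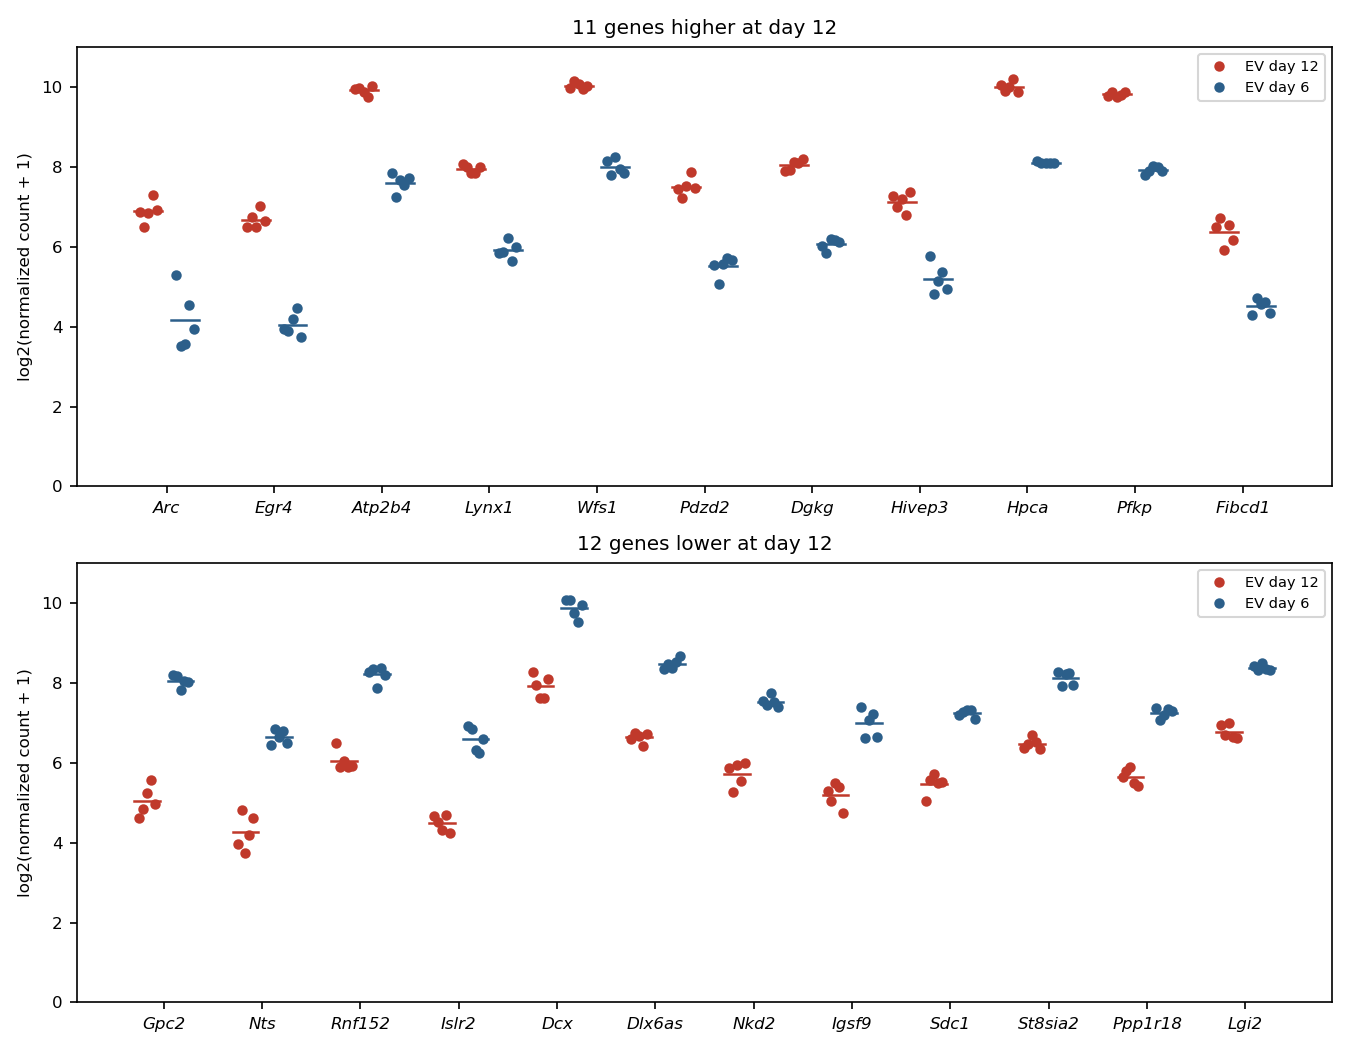
Normalized counts on a log2 scale (vertical axis, log2 of the normalized count + 1) of 11 of the 12 genes with the largest rise (upper panel) and the 12 with the largest fall (lower panel) in EV cultures, with 1 point per library, day 12 in red and day 6 in blue, and a line at the mean of 5 libraries. The rule behind the choice requires the groups not to overlap, and the day 6 points of Arc spread more widely than those of Hpca.

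The list of immature neurons and migration went down as a group. Of its 36 genes tested, 24 were lower at day 12 (66.7%, against 21.2% of all genes tested) and 1 was higher (2 without day 6 replicate 3 or 4), with a median log2 fold change of -0.29. Besides Gpc2, Dcx and St8sia2, these included Cd24, a surface protein of newborn neurons, which averaged 1660 ± 54 at day 12 and 3253 ± 89.6 at day 6 (-0.97 ± 0.04, adjusted p = 4.49e-19). Stmn1, which encodes the microtubule-destabilizing protein stathmin, averaged 9896 ± 352 at day 12 and 18214 ± 231 at day 6 (-0.88 ± 0.03, adjusted p = 4.85e-19), and the semaphorin signaling protein gene Crmp1 7174 ± 270.4 at day 12 and 11412 ± 516 at day 6 (-0.67 ± 0.03, adjusted p = 3.84e-17). Growth cone genes fell by less. Gap43 changed by -0.22 ± 0.04 and Stmn2 by -0.38 ± 0.04 on the log2 scale. The member that rose was Rnd2, a small GTPase of migrating cortical neurons, at 384, 409, 411, 419 and 494 at day 12 and 258, 299.8, 242, 267 and 242 at day 6 (0.69 ± 0.09, adjusted p = 2.83e-07). The summed level of the list was 127487 to 132861 in the day 12 libraries and 164785 to 171407 in the day 6 libraries.

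Of 51 axon guidance genes tested, 15 were higher (29.4%, against 23.3% of all genes) and 19 lower (37.3%, against 21.2%). Their median log2 fold change was -0.07. The secreted class 3 semaphorin Sema3a fell to 54.6 ± 5.62 at day 12, against 125 ± 19.1 at day 6 (-1.17 ± 0.13, adjusted p = 8.16e-09), and Sema3c and the ephrin receptor Epha3 changed by -0.70 ± 0.06 and -0.78 ± 0.11. In the other direction, the transmembrane semaphorin Sema5a was at 388 ± 66.1 at day 12 and 140.2 ± 16.3 at day 6 (1.45 ± 0.15, adjusted p = 2.38e-09), the secreted repellent Slit3 at 107 ± 11.6 at day 12 and 40.6 ± 3.51 at day 6 (1.38 ± 0.14, adjusted p = 6.43e-10), and the plexin receptor Plxnb1 changed by 0.87 ± 0.09. The genes named here had the smallest adjusted p in each direction, so no pattern of secreted against membrane-bound semaphorins can be read from them.

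Among 38 tubulins, microtubule proteins and neurofilaments, 19 were higher at day 12 (50%, against 23.3% of all genes) and 10 lower (26.3%, against 21.2%), with a median of 0.19. The summed level of the list went down, at 198713 to 206770 in the day 12 libraries and 238677 to 253743 in the day 6 libraries. The tubulins of growing neurites fell: Tuba1a to 91044 ± 1812 at day 12, against 123378 ± 7503 at day 6 (-0.44 ± 0.03, adjusted p = 5.01e-12), with log2 fold changes of -0.52 ± 0.04 for Tubb3 and -0.58 ± 0.04 for Tubb2b. Other tubulin genes rose, with Tuba4a at 1596, 1737, 1685, 1817 and 1613 at day 12 and 712, 756, 743, 775 and 771 at day 6 (1.17 ± 0.05, adjusted p = 7.74e-19), Tubb4a at 0.50 ± 0.05 and Tubb4b at 0.34 ± 0.04. Tubulin genes are close copies of each other, so reads may be divided unequally between them. Map2, which encodes a dendritic microtubule-associated protein, did not pass the test (0.05 ± 0.09, adjusted p = 0.642), and its libraries overlapped, at 4500 to 5071 at day 12 and 3732 to 5482 at day 6. The end-binding protein Mapre3 changed by 0.70 ± 0.07.

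Of the 19 genes of the pan-neuronal list, which marks neurons of any stage, 10 were higher (52.6%, against 23.3% of all genes) and 6 lower (31.6%, against 21.2%). Thy1, a surface glycoprotein of mature neurons, rose to 1080, 1110, 1066, 1107 and 1184 at day 12, against 344, 347, 314, 378 and 356 at day 6 (1.67 ± 0.05, adjusted p = 2.07e-22). Rbfox3, the splicing factor known as NeuN, averaged 288 ± 17.6 at day 12 and 175 ± 16 at day 6 (0.72 ± 0.07, adjusted p = 3.65e-10). The endosomal proteins Nsg1 and Nsg2 fell, with log2 fold changes of -0.43 ± 0.07 and -0.37 ± 0.04.

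Postsynaptic genes rose in the largest share of members among the neuronal lists examined. Of 51 scaffolds and signaling proteins tested, 37 were higher at day 12 (72.5%, against 23.3% of all genes) and 4 lower, and 12 rose by 2-fold or more, with a median log2 fold change of 0.63. Icam5, a dendritic adhesion protein known as telencephalin, had 1009, 1080, 1017, 1139 and 1040 at day 12 and 325, 355, 308, 389.5 and 340.5 at day 6 (1.62 ± 0.06, adjusted p = 4.49e-19). Camk2a, the α subunit of CaM kinase II, had 154, 137, 132, 122 and 158 at day 12 and 88.7, 77.6, 85.3, 84.9 and 70.0 at day 6 (0.78 ± 0.11, adjusted p = 1.05e-06). In both genes the libraries of the 2 days were apart. Dlg4, which encodes the scaffold PSD-95, did not pass the test, with 89.2, 93, 59.5, 78 and 53.7 at day 12 and 87.8, 76.7, 52.9, 53.7 and 72.9 at day 6 (0.11 ± 0.20, adjusted p = 0.68). Of the members that fell, Cnksr2 (-0.15 ± 0.06, adjusted p = 0.0327) and Psd3 (-0.31 ± 0.12, adjusted p = 0.0308) lost the call in several fits that left out 1 library, and the number of members lower was 1 without day 12 replicate 3, 4 or 5 and 2 without day 6 replicate 3, 4 or 5.

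Glutamate receptor genes were called higher more often than lower. Of 24 subunits 16 were higher (66.7%, against 23.3% of all genes) and 4 lower (16.7%, against 21.2%), with a median of 0.43. Of 21 auxiliary proteins 13 were higher (61.9%) and 1 lower (4.76%), with a median of 0.32. Grin1, the obligatory subunit of NMDA receptors, averaged 1742 ± 76.6 at day 12 and 1133 ± 73 at day 6 (0.62 ± 0.06, adjusted p = 1.102e-09). Grin2a, the later NMDA receptor subunit, had 96.5, 59.1, 106, 115 and 112 at day 12 and 67.5, 23.5, 34.5, 54.9 and 16.3 at day 6 (1.43 ± 0.31, adjusted p = 3.17e-04), and one day 6 library exceeded the lowest day 12 library. The AMPA receptor subunits Gria2 and Gria4 changed by 0.38 ± 0.03 and 0.31 ± 0.05, and the kainate receptor subunit Grik4 by 1.09 ± 0.12. Cacng3, an auxiliary protein that traffics AMPA receptors, was at 189, 190.4, 174, 191 and 208 in the 5 EV day 12 libraries, against 65, 62.8, 62.6, 58.7 and 63.3 in the 5 EV day 6 libraries (1.59 ± 0.10, adjusted p = 5.46e-14). The spread within each day was small beside the difference between the days. The secreted pentraxin Nptx1, which clusters AMPA receptors, averaged 369.5 ± 27.5 at day 12 and 146 ± 17.2 at day 6 (1.34 ± 0.08, adjusted p = 6.99e-15). Subunits that fell were the kainate receptor Grik1 (-0.62 ± 0.15) and the metabotropic receptors Grm8 (-0.70 ± 0.21) and Grm3 (-0.32 ± 0.12). Grm3 lost its call without day 12 replicate 1 or 3 or day 6 replicate 1, 3 or 4, and the count of subunits lower was 2 without day 6 replicate 1 or 3.

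Receptors of inhibitory transmission followed. Of 19 GABA and glycine receptor genes, 13 were higher (68.4%, against 23.3% of all genes) and 3 lower (15.8%, against 21.2%), with a median of 0.33. The GABA-B receptor subunits Gabbr1 and Gabbr2 changed by 0.30 ± 0.04 and 0.73 ± 0.08. Glra2, the glycine receptor subunit of immature neurons, fell to 184 ± 12.2 at day 12, against 338 ± 28.3 at day 6 (-0.88 ± 0.09, adjusted p = 2.14e-09). Gabra5 was lower (-0.12 ± 0.04) and lost its call without day 12 replicate 3 or day 6 replicate 5.

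Of 22 genes for chloride transport and the sodium pump, 11 were higher (50%, against 23.3% of all genes) and 1 lower (4.55%, against 21.2%). Slc12a5 encodes KCC2, the neuronal transporter that extrudes chloride, and had 759, 709.6, 694, 726 and 677 in the 5 EV day 12 libraries, against 419, 346, 454, 441 and 405 in the 5 EV day 6 libraries (0.79 ± 0.07, adjusted p = 2.28e-11). Its counterpart Slc12a2, which encodes NKCC1 and takes up chloride, had 483, 492, 457, 461 and 480.2 at day 12 and 419, 400.0, 424, 497 and 439 at day 6 (0.13 ± 0.08, adjusted p = 0.185). The libraries of the 2 days were apart for Slc12a5 and overlapped for Slc12a2. The member called lower, the kinase gene Wnk3 (-0.32 ± 0.13, adjusted p = 0.0497), was not called by edgeR or DESeq2, nor without day 12 replicate 3, 4 or 5 or day 6 replicate 1, 3, 4 or 5.

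Voltage-gated channels rose as well. Among 15 sodium channels and partners 9 were higher (60%) and 2 lower (13.3%), and among 60 potassium and HCN channels 30 (50%) and 6 (10%). Among 27 calcium channels and pumps 17 were higher (63%) and 2 lower (7.41%), against 23.3% and 21.2% of all genes. The medians of these lists were 0.35, 0.33 and 0.36. Scn8a, the sodium channel of the mature axon initial segment and nodes, averaged 268 ± 47.3 at day 12 and 134 ± 33.9 at day 6 (1.02 ± 0.17, adjusted p = 7.85e-06). The auxiliary subunit Scn2b changed by 0.95 ± 0.12. The falls of Scn3a, the sodium channel of fetal neurons (-0.18 ± 0.07, adjusted p = 0.027), and of Scn3b (-0.15 ± 0.05, adjusted p = 0.02) were small. Scn3a lost its call without day 12 replicate 2 or day 6 replicate 3 or 5 and Scn3b without day 12 replicate 5 or day 6 replicate 3, which left 1 or, without day 6 replicate 3, 0 of the list lower. Kcnn1, a calcium-activated potassium channel, had 135, 169, 140.3, 170.0 and 192 at day 12 and 41.4, 41.8, 47.5, 39.95 and 51.8 at day 6 (1.83 ± 0.13, adjusted p = 2.76e-13). Kcnh3, a voltage-gated channel of the forebrain, averaged 905 ± 45.1 at day 12 and 382 ± 49.2 at day 6 (1.25 ± 0.08, adjusted p = 9.27e-15). Both potassium channels were apart in every library. The 2-pore channels Kcnk9 and Kcnk10 were lower (-0.47 ± 0.09 and -0.86 ± 0.10 on the log2 scale). The sodium-calcium exchanger Slc8a1 and the calcium channel subunit Cacna2d1 also fell, with log2 fold changes of -0.60 ± 0.14 and -0.37 ± 0.05.

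On the presynaptic side, 37 of 57 genes of vesicles and release were higher (64.9%, against 23.3% of all genes) and 6 lower (10.5%, against 21.2%), with a median of 0.33. Syn2, a synapsin that tethers vesicles, had 1191, 1251, 1191, 1298 and 1113 at day 12 and 466, 402, 475, 499 and 429.8 at day 6 (1.41 ± 0.06, adjusted p = 7.22e-19). Cplx2, a complexin that clamps release, averaged 2093 ± 56.2 at day 12 and 1104 ± 104 at day 6 (0.93 ± 0.06, adjusted p = 1.11e-14). General vesicle genes rose by less: Syp, for synaptophysin, by 0.47 ± 0.04, the calcium sensor Syt1 by 0.52 ± 0.05 and the SNARE gene Snap25 by 0.60 ± 0.06 on the log2 scale. Slc17a7, which encodes the vesicular glutamate transporter of most cortical neurons, averaged 4602 ± 62.4 at day 12 and 2784 ± 55.5 at day 6 (0.73 ± 0.03, adjusted p = 2.19e-20). Syt4, a synaptotagmin found on dense-core vesicles, fell to 2910 ± 226 at day 12, against 5063 ± 227 at day 6 (-0.80 ± 0.05, adjusted p = 9.597e-15), and Cadps2, which primes dense-core vesicles, changed by -0.87 ± 0.07. Synaptic adhesion genes were close to the background, with 15 higher (31.2%) and 10 lower (20.8%) of 48, although Cntnap1, a protein of axoglial contacts, changed by 1.72 ± 0.13.

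Genes of cortical layers fell more often than they rose. Of 33 transcription factors and markers of cortical layers 5 were higher (15.2%, against 23.3% of all genes) and 16 lower (48.5%, against 21.2%), with a median of -0.25. Bhlhe22 fell to 276, 247, 221, 233 and 266 at day 12, against 807, 983, 513, 573 and 712 at day 6 (-1.49 ± 0.16, adjusted p = 2.96e-09). Bcl11b, known as Ctip2 and a determinant of corticospinal neurons, changed by -0.55 ± 0.13. The groups did not overlap in either gene. Cux2, of the upper layers, rose to 142 ± 11.2 at day 12, against 84.5 ± 20.4 at day 6 (0.77 ± 0.14, adjusted p = 4.56e-05). Tbr1, of deep-layer neurons, did not pass the test (-0.00 ± 0.11, adjusted p = 0.989).

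Among 30 genes of GABAergic neurons, 8 were higher (26.7%, against 23.3% of all genes) and 7 lower (23.3%, against 21.2%), close to the background. Both genes that make GABA fell. Gad1, one of the GABA-synthesizing enzymes, had 367, 337, 294, 341 and 357 at day 12 and 604, 559.5, 613, 617 and 527 at day 6 (-0.78 ± 0.06, adjusted p = 2.01e-12). Gad2 had 499, 511, 518, 458 and 504 at day 12 and 784, 718, 787, 840.3 and 756 at day 6 (-0.64 ± 0.07, adjusted p = 2.45e-09). Neither gene's groups overlapped. The calcium-binding protein Calb1 changed by 1.06 ± 0.06. Sst, for somatostatin, was lower (-0.26 ± 0.09) with overlapping libraries and lost its call without day 6 replicate 2 or 4. Npy (adjusted p = 0.288), Vip (adjusted p = 0.393) and Reln (adjusted p = 0.315) did not pass the test, and Pvalb was below the filter.

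Of 27 genes of neuropeptides and their processing, 11 were higher (40.7%, against 23.3% of all genes) and as many lower (40.7%, against 21.2%). Cck, for cholecystokinin, averaged 1203 ± 60.9 at day 12 and 533 ± 62.3 at day 6 (1.18 ± 0.07, adjusted p = 8.78e-15), and Grp, for gastrin-releasing peptide, 109 ± 11.3 at day 12 and 35.5 ± 5.71 at day 6 (1.60 ± 0.13, adjusted p = 7.07e-12). Penk, the precursor of enkephalins, fell to 41, 30.4, 14.6, 18.4 and 23.5 at day 12, against 103, 69.7, 83.1, 61.2 and 63.3 at day 6 (-1.60 ± 0.19, adjusted p = 4.88e-08). Nppc and Adcyap1, which encode the natriuretic peptide CNP and the peptide PACAP, changed by -1.33 ± 0.14 and -0.75 ± 0.07. Of 34 receptors for monoamines, acetylcholine, adenosine, cannabinoids and peptides, 9 were higher (26.5%, against 23.3% of all genes) and 4 lower (11.8%, against 21.2%). Among somatostatin receptors, Sstr1 changed by -0.61 ± 0.09 and Sstr3 by 2.13 ± 0.30. Sstr3 averaged 18.9 ± 10.1 at day 12 and 3.55 ± 1.92 at day 6. It passed the filter only through later days, which favored a call of higher. The neuropeptide Y receptor Npy1r averaged 153 ± 20.6 at day 12 and 316 ± 17 at day 6 (-1.05 ± 0.08, adjusted p = 3.12e-12).

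Neurotrophin and growth factor genes were higher in 19 of 41 cases (46.3%, against 23.3% of all genes). They were lower in 4 (9.76%, against 21.2%), or 2 with a smallest normalized count of 50. Ntrk2, the BDNF receptor of neurons and astrocytes, averaged 4134 ± 93 at day 12 and 2940 ± 334 at day 6 (0.50 ± 0.06, adjusted p = 1.03e-08), and Ntrk3, the receptor of neurotrophin-3, changed by 0.39 ± 0.06. Its ligand Ntf3 fell, at -0.88 ± 0.20. Bdnf itself did not pass the test, with 109, 109, 108, 114 and 89.6 at day 12 and 98, 122, 104, 125 and 113 at day 6 (-0.08 ± 0.10, adjusted p = 0.503).

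Genes regulated by neuronal activity were called higher more often than lower. Of 45 tested, 18 were higher (40%, against 23.3% of all genes), 9 of them by 2-fold or more, and 8 were lower (17.8%, against 21.2%), a count that was 5 without day 12 replicate 3 or day 6 replicate 2. Egr1, an immediate early transcription factor, had 487, 529.6, 451, 539 and 524 at day 12 and 187, 122, 159.8, 112 and 144 at day 6 (1.82 ± 0.12, adjusted p = 4.27e-14), in the same direction as Arc and Egr4. Fos rose by less, with 61, 39.1, 67.4, 59.6 and 77.2 at day 12 and 43.1, 28.8, 46.4, 35 and 30.7 at day 6 (0.70 ± 0.15, adjusted p = 3.55e-04) and overlap between the days. Npas4, an activity-dependent factor with few reads here, did not pass the test (0.60 ± 0.37, adjusted p = 0.186). Against these, Nfil3, a repressor with a leucine zipper, fell to 95.4 ± 10.5 at day 12, against 275 ± 23.2 at day 6 (-1.52 ± 0.09, adjusted p = 1.31e-14). Scg2, for secretogranin II of dense-core vesicles, averaged 316 ± 40.1 at day 12 and 537 ± 25.6 at day 6 (-0.77 ± 0.09, adjusted p = 2.55e-08), and Nr4a2 changed by -0.71 ± 0.09.

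**Figure D2:**
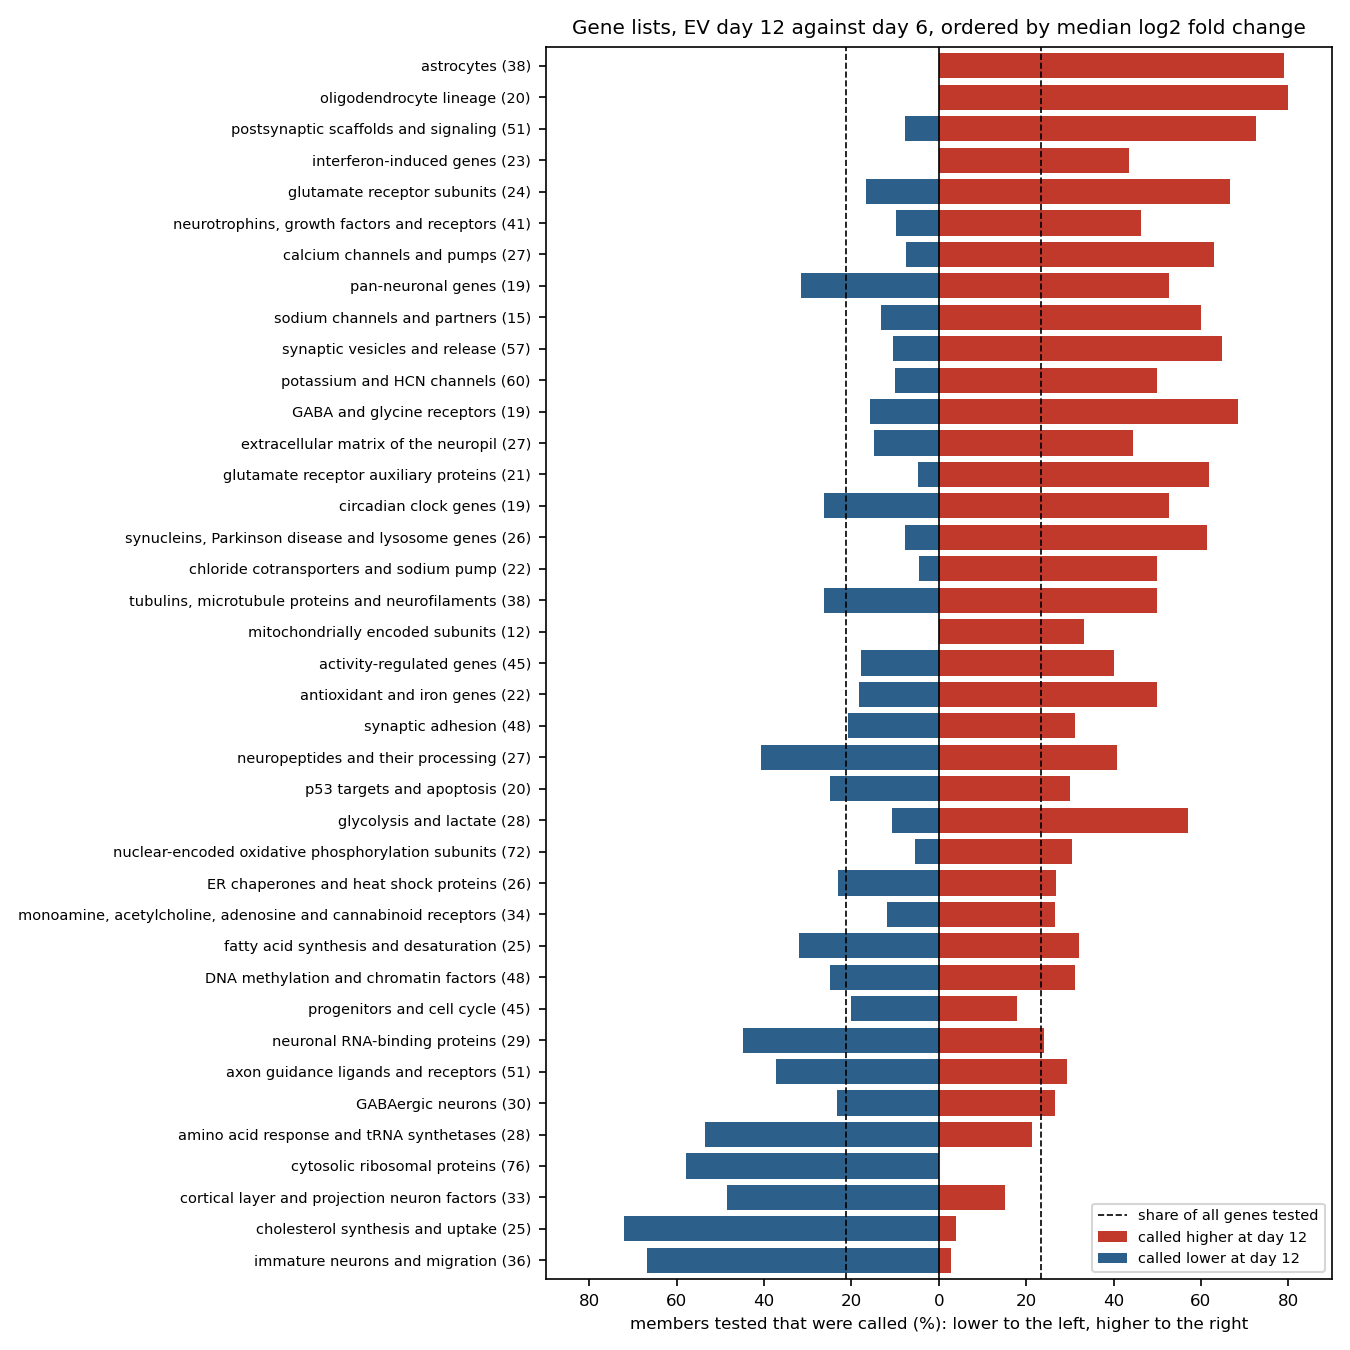
Share of the tested members of 39 gene lists that were called at day 12 against day 6 in EV cultures (horizontal axis, percent), higher to the right in red and lower to the left in blue, with the number of members tested in parentheses and dashed lines at the shares of all genes tested (23.3% higher and 21.2% lower). Lists are ordered by their median log2 fold change, with astrocytes at the top and immature neurons at the bottom.

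Of the 39 lists plotted, astrocyte genes had the highest median, 0.81 on the log2 scale. Of 38 tested, 30 were higher at day 12 (78.9%, against 23.3% of all genes), 11 of them by 2-fold or more. None was lower, or 1 without day 6 replicate 1. S100b, a calcium-binding protein of astrocytes, had 2248, 2357, 2348, 2459 and 2381 at day 12 and 904, 1156, 938, 1174 and 986 at day 6 (1.2 ± 0.06, adjusted p = 5.44e-17). Aqp4, the water channel of astrocyte endfeet, had 1509, 1635, 1776, 1532 and 1838 at day 12 and 887, 884, 755, 928 and 945 at day 6 (0.91 ± 0.08, adjusted p = 4.77e-11). Kcnj10, the potassium channel Kir4.1, averaged 77.3 ± 5.38 at day 12 and 32.7 ± 5.38 at day 6 (1.23 ± 0.12, adjusted p = 8.58e-10). These groups did not overlap. Slc1a2, the main glutamate transporter of astrocytes, changed by 1.03 ± 0.13, Clu by 1.26 ± 0.06 and Aldoc by 1 ± 0.06. Gfap, the intermediate filament of astrocytes, did not pass the test, with 694, 724, 912, 799 and 1275 at day 12 and 771, 628, 747, 544 and 828 at day 6 (0.30 ± 0.21, adjusted p = 0.245).

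The oligodendrocyte lineage rose in parallel, with 16 of 20 genes higher (80%, against 23.3% of all genes) and none lower, or 1 without day 12 replicate 5. Mbp, for myelin basic protein, averaged 328 ± 80.7 at day 12 and 167 ± 41.4 at day 6 (0.97 ± 0.24, adjusted p = 0.00113). Gpr17, a receptor of committed precursors, had 179, 176, 120.1, 138 and 216 at day 12 and 89.5, 74.1, 70.2, 58.7 and 69.1 at day 6 (1.17 ± 0.25, adjusted p = 2.33e-04). Cspg4, for the proteoglycan NG2 of precursors, averaged 328 ± 46.1 at day 12 and 136 ± 18.8 at day 6 (1.26 ± 0.13, adjusted p = 8.92e-10). Day 12 replicate 5 was the highest library for Mbp and Gpr17. The factors that define the lineage had small changes, with Olig1 at 0.37 ± 0.04 and Olig2 at 0.14 ± 0.05, and Olig2 lost its call without day 12 replicate 2 or 5 or day 6 replicate 5.

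Progenitor and cell cycle genes stayed near the background, with 8 higher (17.8%, against 23.3% of all genes) and 9 lower (20%, against 21.2%) of 45 (median -0.03). The D cyclins Ccnd1 and Ccnd2 rose, by 0.67 ± 0.09 and 1.07 ± 0.09. Mki67, which marks cycling cells, had 30.03, 37.4, 49.4, 39 and 35.8 at day 12 and 19.4, 4.36, 20.5, 21.2 and 12.5 at day 6 (1.39 ± 0.32, adjusted p = 6.38e-04), whereas the topoisomerase Top2a of dividing cells did not pass the test (0.14 ± 0.21, adjusted p = 0.611). Tyms and Mcm4, of nucleotide synthesis and DNA replication, were lower (-0.59 ± 0.09 and -0.43 ± 0.08).

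Matrix genes of the neuropil rose in 12 of 27 cases (44.4%, against 23.3% of all genes). They fell in 4 (14.8%, against 21.2%), or 2 with a smallest normalized count of 50. The proteoglycan Bcan, which is also on the astrocyte list, averaged 5322 ± 421 at day 12 and 2872 ± 213 at day 6 (0.89 ± 0.05, adjusted p = 5.82e-15). Acan, for aggrecan, fell to 34.6, 20.9, 22.5, 23.8 and 17.9 at day 12, against 67.5, 54, 86.4, 63.7 and 48 at day 6 (-1.39 ± 0.19, adjusted p = 2.91e-07), and the hyaluronan synthase Has3 changed by -1.27 ± 0.28. Has3 had 5.46 to 14.1 normalized counts at day 12 and 21.1 to 28.7 at day 6. Its day 6 libraries alone carried it past the filter, which favored a call of lower. Of 23 interferon-induced genes 10 were higher (43.5%, against 23.3% of all genes) and none lower, and 6 were higher with a smallest normalized count of 50. Among the 10 were B2m, the light chain of MHC class I, at 0.86 ± 0.06, Ifi27 at 1.40 ± 0.17 and Samd9l at 0.80 ± 0.10. Both lists moved with the astrocyte and oligodendrocyte marker sums given above (for astrocytes, 111056 to 119793 in the day 12 libraries and 59693 to 70754 in the day 6 libraries), and the part of these cells in the lists was not tested.

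Genes of cholesterol synthesis were mostly lower at day 12. The pathway runs from acetyl-CoA through mevalonate to sterols, and neurons carry out much of it early and later rely more on astrocytes. Of 25 genes tested 18 were lower at day 12 (72%, against 21.2% of all genes) and 1 was higher (2 without day 6 replicate 2), with a median of -0.28. Idi1, the isopentenyl diphosphate isomerase, had 1166, 1191, 1121, 1166 and 1181 at day 12 and 1778, 1880, 1529, 1584 and 1785 at day 6 (-0.55 ± 0.06, adjusted p = 2.45e-09). Cyp51, the lanosterol demethylase, had 3089, 3150, 2965, 3047 and 3183 at day 12 and 4814, 4939, 4754, 4721 and 4813 at day 6 (-0.64 ± 0.04, adjusted p = 2.44e-15). Neither overlapped between the days, although the changes were small. The member that rose was Srebf2, which encodes the factor that activates the pathway (0.26 ± 0.05, adjusted p = 1.89e-04). The list fell while the astrocyte marker sum rose, and the part of a change in cell types was not tested.

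Of 25 fatty acid genes, 8 were higher (32%, against 23.3% of all genes) and as many lower (32%, against 21.2%). The desaturase Scd was lower (-0.99 ± 0.11 on the log2 scale), and Fasn, the fatty acid synthase, averaged 3793 ± 269 at day 12 and 5374 ± 492 at day 6 (-0.50 ± 0.07, adjusted p = 7.898e-07). Srebf1, the activator of fatty acid synthesis genes, rose to 2311 ± 314 at day 12, against 1314 ± 109.6 at day 6 (0.81 ± 0.09, adjusted p = 1.03e-08).

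Genes of energy metabolism and translation separated. In glycolysis 16 of 28 genes were higher (57.1%, against 23.3% of all genes) and 3 lower (10.7%, against 21.2%). The rises were led by Pfkp and Aldoc, of which Aldoc is also on the astrocyte list. The astrocyte marker sum rose as well, and the part of astrocytes in the glycolysis list was not tested. Of 72 nuclear-encoded subunits of oxidative phosphorylation, 22 were higher (30.6%) and 4 lower (5.56%, or 2 genes without day 6 replicate 2), with a median of 0.05. Of 12 mitochondrially encoded subunits 4 were higher (33.3%), but 2 without day 12 replicate 1, 2 or 5 and 1 without day 6 replicate 3. Cytosolic ribosomal protein genes fell, in 44 of 76 (57.9%, against 21.2% of all genes), with a median of -0.19 and none higher, or 1 without day 6 replicate 2. Rpl5 averaged 944 ± 36.7 at day 12 and 1233 ± 36 at day 6 (-0.39 ± 0.04, adjusted p = 8.27e-09). Many have processed pseudogenes, between which reads may be divided. Of 28 genes of the amino acid response and tRNA charging, 15 were lower (53.6%) and 6 higher (21.4%). The asparagine synthetase Asns was at -0.76 ± 0.06 and the synthetases Cars and Mars at -0.53 ± 0.04 and -0.46 ± 0.04.

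Among lists of cell stress and housekeeping, chaperones and p53 targets were called in shares near those of all genes. Of 26 chaperones 7 were higher (26.9%, against 23.3% of all genes) and 6 lower (23.1%, against 21.2%). Of 20 p53 targets and apoptosis genes 6 were higher (30%) and 5 lower (25%). The proapoptotic Bid fell, to 135 ± 15.3 at day 12, against 282 ± 28.9 at day 6 (-1.06 ± 0.09, adjusted p = 2.17e-11). Antioxidant and iron genes were higher in 11 (50%) and lower in 4 of 22, with the metallothioneins Mt2A and Mt3 at 1.35 ± 0.09 and 0.94 ± 0.06 and the transferrin receptor Tfrc at -0.62 ± 0.07. Genes of Parkinson disease and the lysosome were higher in 16 (61.5%) and lower in 2 of 26, among them the lysosomal protease Ctsd (0.40 ± 0.03) and Gaa, the acid α-glucosidase (0.53 ± 0.05). Of 19 clock genes 10 were higher (52.6%) and 5 lower (26.3%). The nuclear receptor Nr1d1, which represses Arntl, averaged 210.5 ± 23.2 at day 12 and 93.1 ± 6.09 at day 6 (1.16 ± 0.10, adjusted p = 4.72e-11), and Arntl itself was lower (-0.47 ± 0.07). The hour of harvest is not given in the sources used here.

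Shares called among chromatin factors were near those of all genes, and neuronal RNA-binding proteins fell more often than they rose. Of 48 chromatin factors 15 were higher (31.2%, against 23.3% of all genes) and 12 lower (25%, against 21.2%), with the deacetylases Hdac9 at -1.07 ± 0.08 and Hdac11 at 0.80 ± 0.08. Of 29 RNA-binding proteins 7 were higher (24.1%) and 13 lower (44.8%). Elavl2, a neuronal stabilizer of transcripts, averaged 276 ± 22.3 at day 12 and 558 ± 79.1 at day 6 (-1.01 ± 0.11, adjusted p = 1.05e-08), and Mbnl2, a splicing factor of mature neurons, 560.5 ± 37.6 at day 12 and 289 ± 21 at day 6 (0.95 ± 0.07, adjusted p = 4.49e-12).

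Exchanges within gene families were read as ratios of normalized counts in each library, with the later member over the earlier one, for 16 pairs. A ratio depends on the lengths of both genes, so only its change between days was read, and pairs were described without a test. In 6 pairs the ratio of every day 12 library was above that of every day 6 library, in 4 it was below and in 6 the days overlapped. The shares for single genes were 15.1% and 14%, and no share was computed for ratios. Besides Grin2a/Grin2b, the pairs that overlapped were Scn1a/Scn3a, Gria2/Gria4, Dlg4/Dlg3, Scn8a/Scn2a and Lmna/Lmnb1. Their mean ratio at day 12 was 1.07, 1.04, 0.903, 1.72 and 1.47 times that at day 6. The transporter ratio Slc12a5/Slc12a2 was 1.57, 1.44, 1.52, 1.57 and 1.41 at day 12 and 1, 0.865, 1.07, 0.887 and 0.921 at day 6. Slc17a7/Slc17a6, for the vesicular glutamate transporters, was 60.1, 40.1, 56.2, 50.2 and 72.4 at day 12 and 22.3, 22.6, 17.6, 19.3 and 21.3 at day 6, and its earlier member fell (-0.68 ± 0.13, adjusted p = 7.59e-05). In both pairs the day 12 libraries were all higher. The same held for Tubb4a/Tubb2b, Nefh/Ina, Camk2a/Camk2b and Vamp1/Vamp2, of which Nefh had at most 24.7 normalized counts in any of these libraries.

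Pairs of chromatin and splicing factors ran the other way. Actl6b/Actl6a and Dpf1/Phf10 are exchanges of subunits in the BAF chromatin remodeling complex, in which the first member replaces the second when neurons leave the cell cycle. Actl6b/Actl6a was 3.34 ± 0.357 at day 12 and 4.43 ± 0.362 at day 6. Dpf1/Phf10 was 4.5 ± 0.518 at day 12 and 6.16 ± 0.858 at day 6. Ptbp2/Ptbp1, the neuronal over the general repressor of splicing, was 1.66 ± 0.242 at day 12 and 2.52 ± 0.259 at day 6. Acan/Vcan was 0.172 ± 0.0517 at day 12 and 0.467 ± 0.182 at day 6. Every day 12 library was below every day 6 library in these 4 pairs. In single genes, Actl6b (-0.33 ± 0.05), Dpf1 (-0.61 ± 0.06) and Ptbp2 (-0.36 ± 0.06) fell, Ptbp1 rose (0.25 ± 0.07), and Actl6a (adjusted p = 0.53), Phf10 (adjusted p = 0.272) and Vcan (adjusted p = 0.997) did not pass the test. The NMDA receptor ratio Grin2a/Grin2b overlapped, at 0.276, 0.144, 0.304, 0.368 and 0.284 at day 12 and 0.192, 0.103, 0.113, 0.202 and 0.0697 at day 6, with a single day 12 library among the day 6 values. Ptbp1 and Actl6a are also expressed in glia, whose marker sums rose (for astrocytes, 111056 to 119793 in the day 12 libraries and 59693 to 70754 in the day 6 libraries), and the part of glia in these ratios was not tested.

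**Figure D3:**
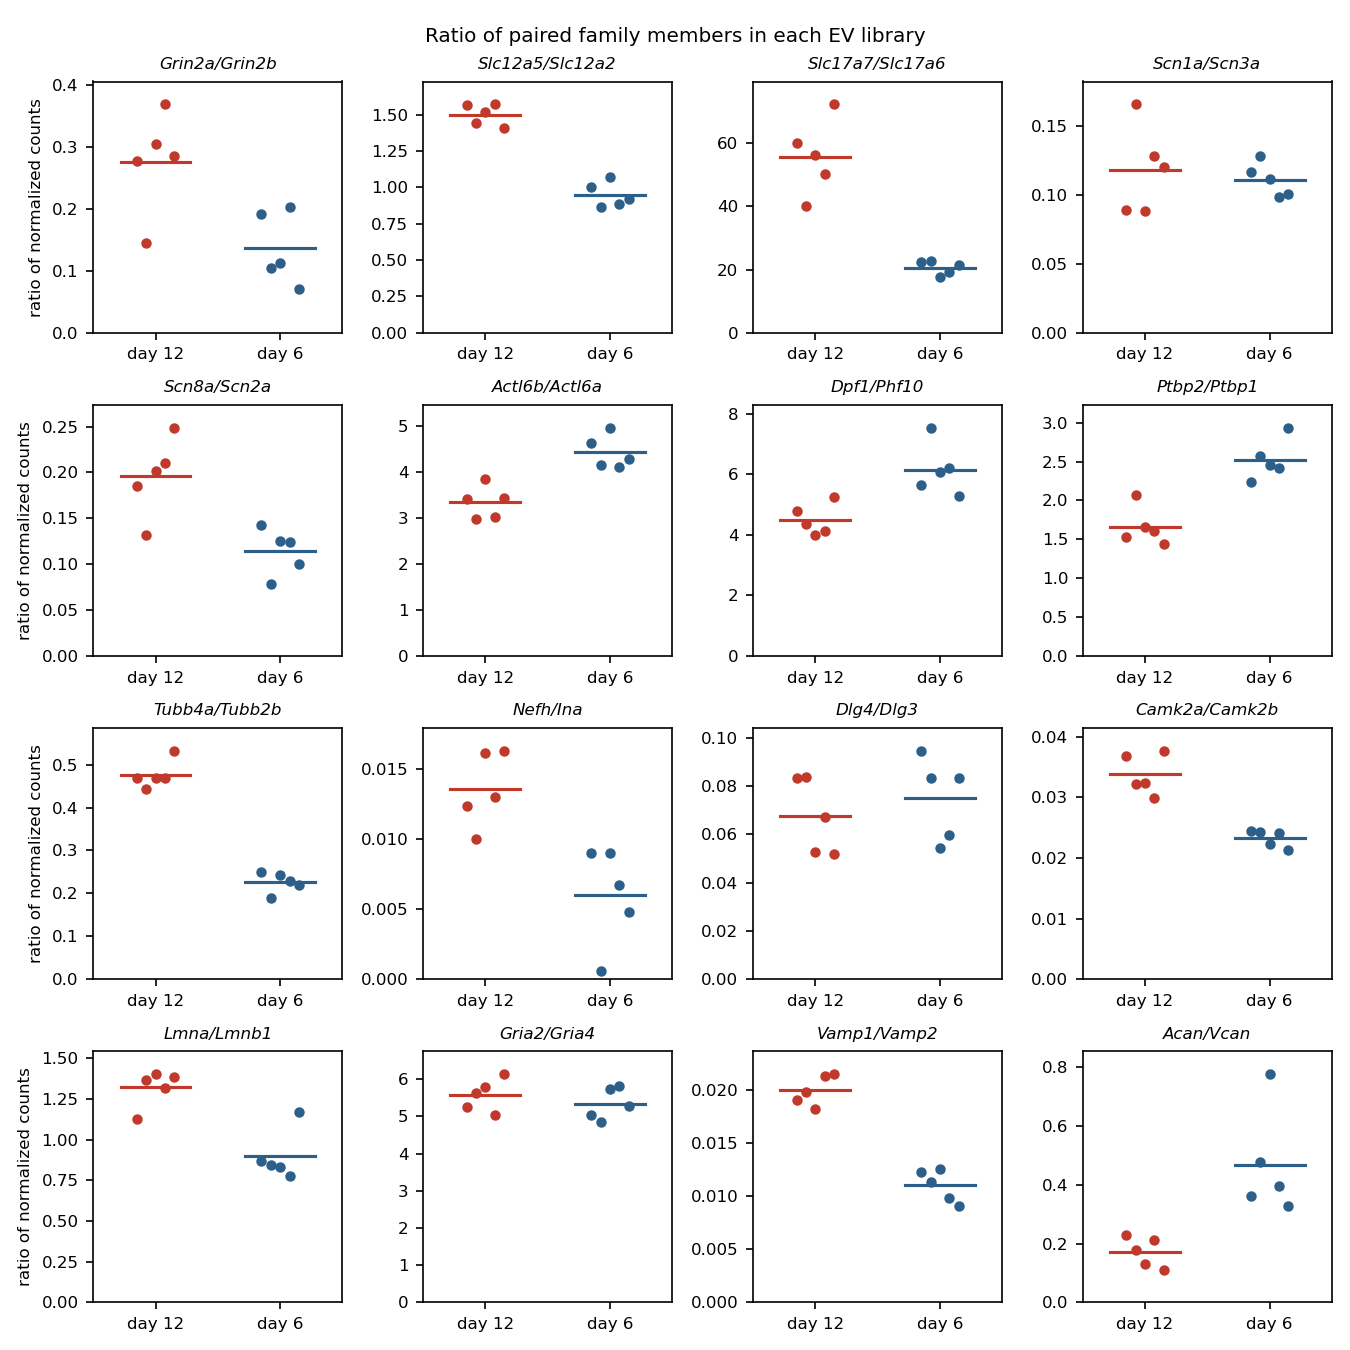
Ratio of normalized counts of 16 pairs of family members, later over earlier (vertical axis, no unit, starting at 0), in each EV library at day 12 (red) and day 6 (blue), with a line at the mean of 5 libraries. Slc12a5/Slc12a2 and Slc17a7/Slc17a6 separate the days upward, Actl6b/Actl6a and Ptbp2/Ptbp1 downward, and Grin2a/Grin2b overlaps.

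The same interval was measured in the 3K cultures, in other libraries, which gives a second reading of the fold changes. The calls of both came from the same fit and share each gene's estimate of spread over all 30 libraries. Calls in common are therefore not independent. In 3K, 2884 genes were higher at day 12 than at day 6 (22.3%) and 2593 lower (20.1%), together 5477 (42.4%). Of the 3013 genes that rose in EV, 2975 (98.7%) had a positive log2 fold change in 3K and 2357 were called higher there, which is 81.7% of the 3K calls and 78.2% of the EV calls. Of the 2732 that fell, 2695 had a negative one and 2052 were called lower, 79.1% of the 3K calls and 75.1% of the EV calls. None was called in the opposite direction in 3K. The share of all genes tested that had the same sign in both was not computed. Across the 12911 genes, which are not independent, the log2 fold changes of 3K and EV had a Pearson correlation of 0.774 and a Spearman correlation of 0.831, given as a description. The change itself differed between 3K and EV for 0 genes (0%) by limma and for 0 by edgeR, with 636 genes (4.93%) at an unadjusted p under 0.05, a smallest adjusted p of 0.133, and 4 genes called by DESeq2. Of these 4, Rbm12 and Wbp11 had log2 differences of implausible size (31.3 and -19.9).

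Arc changed by 2.38 ± 0.24 in 3K and 2.71 ± 0.24 in EV, Atp2b4 by 2.30 ± 0.08 in 3K and 2.31 ± 0.08 in EV, Gpc2 by -2.79 ± 0.25 in 3K and -3.00 ± 0.25 in EV, and Dcx by -1.99 ± 0.16 in 3K and -1.97 ± 0.16 in EV on the log2 scale. The cholesterol list had 19 genes lower in 3K and 18 in EV, the astrocyte list 31 higher in 3K and 30 in EV, and the list of immature neurons 24 lower in each. Of all genes tested, 22.3% were higher and 20.1% lower in 3K, against 23.3% and 21.2% in EV. The oligodendrocyte list had a median of 1.19 in 3K and 0.71 in EV, and no member's change was called different between them.

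**Figure D4:**
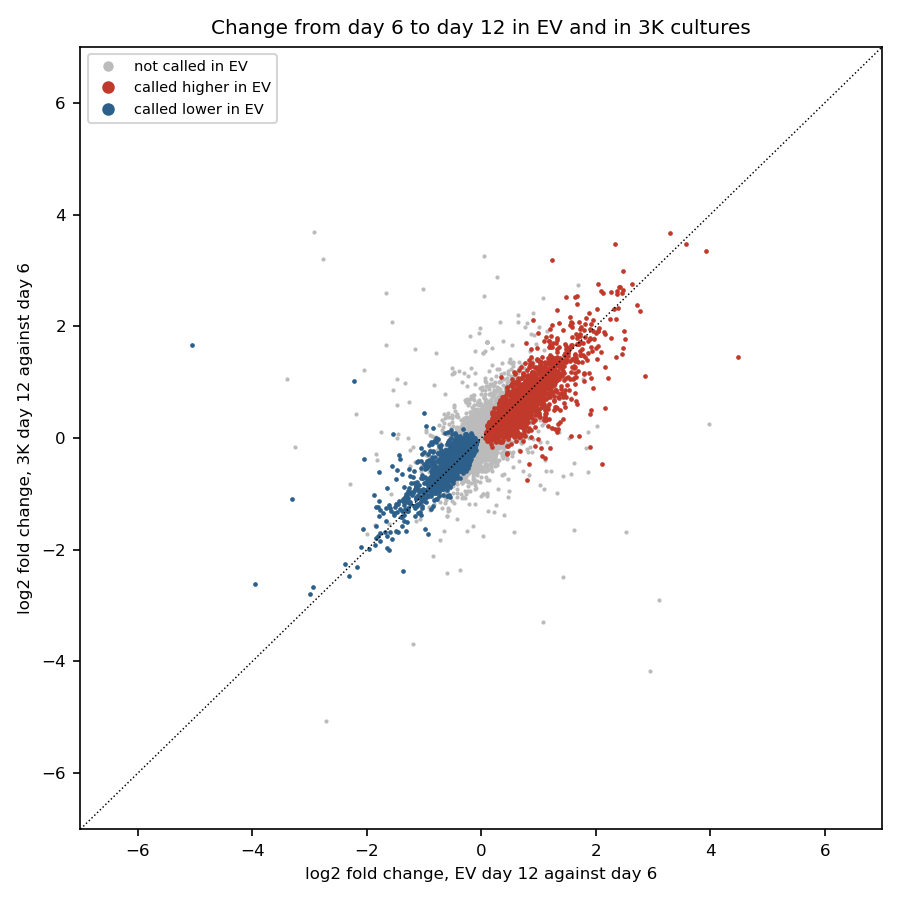
Log2 fold change from day 6 to day 12 of each of 12911 genes in EV cultures (horizontal axis) and in 3K cultures (vertical axis), with genes called higher in EV in red, called lower in blue and others in grey, and a dotted line of equal change. Of the genes called in EV, 2975 of the 3013 higher and 2695 of the 2732 lower have the same sign in 3K and lie in the upper right and lower left quadrants. The share of the same sign over all genes was not computed.

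The next interval, from day 12 to day 19, was used to place the changes in time. It shares the day 12 libraries with the first interval, so the difference between the 2 changes was tested directly, as a contrast over the 3 EV days. Between days 12 and 19, 3052 genes rose (23.6%) and 2808 fell (21.7%), together 5860 (45.4%). The second change was above the first for 1185 genes (9.18%) and below it for 1319 (10.2%), together 2504 (19.4%). The intervals are 6 and 7 days long, and changes were not divided by time.

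The oligodendrocyte lineage reversed. After 16 of its 20 genes had risen by day 12, 17 fell by day 19 (against 21.7% of all genes) and none rose (against 23.6%). The second change was below the first in 18, against 10.2% of all genes. Mbp averaged 167 ± 41.4 at day 6, 328 ± 80.7 at day 12 and 59.9 ± 21.9 at day 19 (SD, n = 5 each), and the second log2 change minus the first was -3.44 ± 0.41, adjusted p = 2.25e-07. Gpr17 averaged 72.3 ± 11.2, 166 ± 37.8 and 33.4 ± 12.5 (-3.50 ± 0.43, adjusted p = 3.34e-07). The means of both genes were highest at day 12 among the days sampled. Id1 and Id3, which encode inhibitors of bHLH factors and respond to BMP, behaved alike, with Id3 at 131 ± 30.6, 324 ± 80.4 and 22.9 ± 11.1 (-5.19 ± 0.44, adjusted p = 6.68e-10), and Id1 with a difference of -3.66 ± 0.31. Cdkn1c, a cell cycle inhibitor, averaged 256 ± 37.7, 508 ± 51.5 and 55 ± 19.1 (-4.26 ± 0.42, adjusted p = 1.17e-08).

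The cell cycle list, near the background at day 12, fell afterwards, with 32 of 45 genes lower at day 19 than at day 12 (against 21.7% of all genes). The cholesterol list had 23 of 25 genes lower at day 19 than at day 12 (against 21.7% of all genes). Its second change was below the first in 17 genes (against 10.2% of all genes). Of 38 astrocyte genes 30 were higher at day 19 than at day 12 (against 23.6% of all genes) and 2 lower (against 21.7%). Gfap, which had not passed the test by day 12, averaged 704 ± 115, 881 ± 236 and 4555 ± 1756 on days 6, 12 and 19 (2.01 ± 0.36, adjusted p = 1.21e-04).

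Several genes fell first and rose later. Gad1 averaged 584 ± 39.4, 339 ± 27.9 and 562 ± 43.7 on days 6, 12 and 19, with a second change above the first by 1.51 ± 0.10, adjusted p = 1.504e-11, and Gad2 777 ± 44.9, 498 ± 23.4 and 836 ± 68.3 (1.39 ± 0.12, adjusted p = 4.83e-10). Penk averaged 76.1 ± 17.3, 25.6 ± 10.4 and 147 ± 34.7 (4.13 ± 0.34, adjusted p = 2.93e-10), and Scg2 537 ± 25.6, 316 ± 40.1 and 726 ± 100.5 (1.97 ± 0.16, adjusted p = 2.398e-10). In each, the day 12 mean was the lowest of the 3. Rasgef1c, an exchange factor for Ras-like GTPases, had the same course (2.76 ± 0.29), whereas Islr2 fell and then did not change detectably (-0.20 ± 0.29, adjusted p = 0.6). Gdf1, a growth factor gene, was listed at 0, 0, 0, 174 and 54.9 at day 12 and 179.8, 149.9, 212, 388 and 173 at day 6, and since 3 of 5 libraries are listed at 0 and the gene shares its transcript with Cers1 in mammals, its values are uncertain and no fold is given. Activity-regulated genes rose in 36 of 45 cases from day 12 to day 19 (against 23.6% of all genes) and fell in 1 (against 21.7%). Bdnf averaged 112 ± 11.6, 106 ± 9.36 and 300.3 ± 30.2 over the 3 days, and changed by 1.5 ± 0.10, adjusted p = 3.25e-14 in the second interval.

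**Figure D5:**
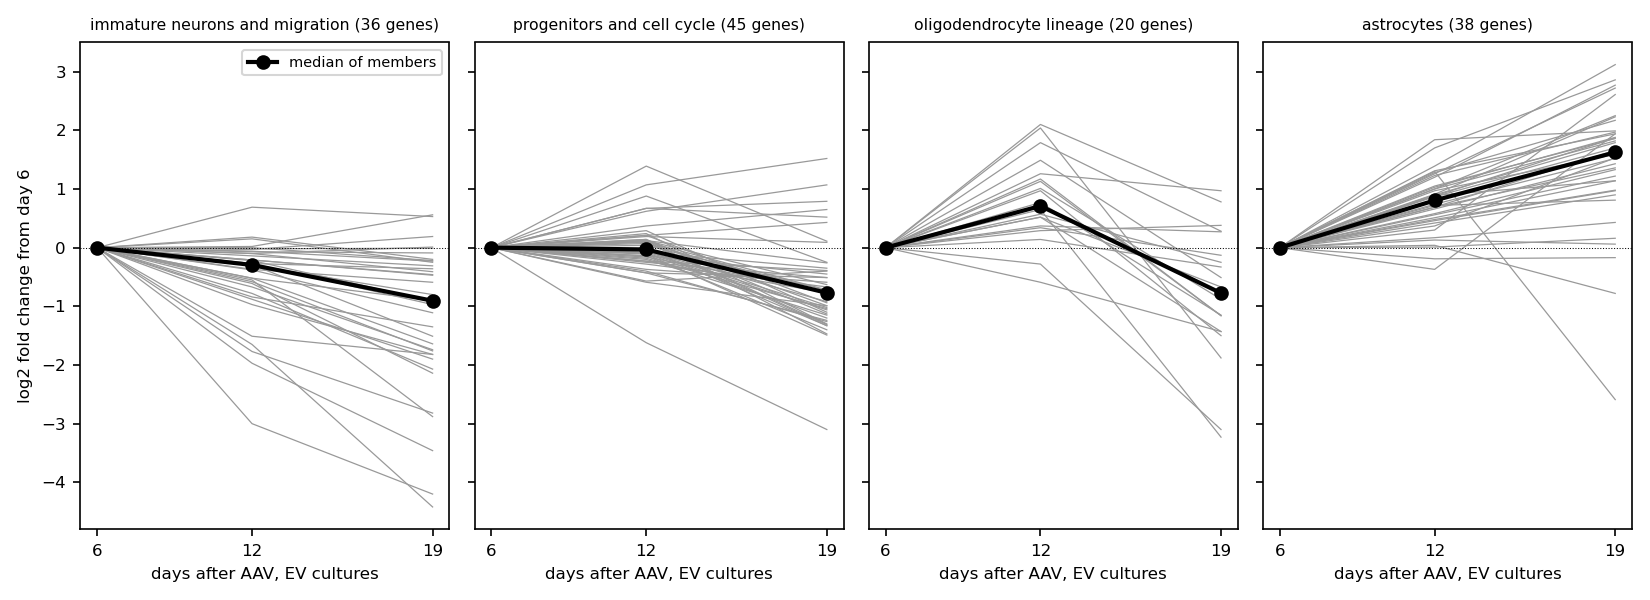
Log2 fold change from day 6 (vertical axis) of the tested genes of 4 lists at days 6, 12 and 19 after AAV in EV cultures (horizontal axis), each gene a grey line and the median a black line, from the limma fit over 5 libraries a day. The median of immature neuron genes falls at each step and that of astrocyte genes rises, that of cell cycle genes falls after day 12, and that of oligodendrocyte genes rises to day 12 and falls afterwards.

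Promoter windows from RefSeq (rat build GRCr8, 250 bases before to 50 after the start of each gene) were matched by symbol for 9383 of 12845 gene names tested, and searched on both strands for short motifs. CCAAT, the box bound by NF-Y, was in 15 of 18 matched promoters of the cholesterol list (83.3%), against 37.8% of promoters of genes tested and 37.7% of all 27457 windows, and 12 of those 15 genes were lower at day 12 and 1 higher, beside 3 lower of the 3 matched genes without it. The full cAMP response element TGACGTCA was in 8 of 32 matched promoters of activity-regulated genes (25%), against 3.29% of genes tested and 1.91% of all windows, and 2 of these 8 genes were higher and 1 lower, beside 8 higher and 6 lower of the 24 without it. Its shorter form TGACG, which overlaps the full element, was in 71.9%, against 32.7% of genes tested. A match is a run of letters and not evidence that a factor binds. In the genes that rose as a whole, CCAAT was in 35.9% and TGACG in 28.1%, and in those that fell in 37.7% and 36.1%.

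Windows of 3 genes of each list are shown, 5′ to 3′ on the strand of the gene, because they carry the motif more than once or in full. Vgf, Fdps and Msmo1 were chosen after their values had been seen. Capitals mark CCAAT on either strand, which reads ATTGG on the other strand, in the promoters of the sterol genes Idi1 (chr17:66547475-66547774, minus strand), Fdps (chr2:176804767-176805066, minus strand) and Msmo1 (chr16:29746863-29747162, plus strand).
Idi1: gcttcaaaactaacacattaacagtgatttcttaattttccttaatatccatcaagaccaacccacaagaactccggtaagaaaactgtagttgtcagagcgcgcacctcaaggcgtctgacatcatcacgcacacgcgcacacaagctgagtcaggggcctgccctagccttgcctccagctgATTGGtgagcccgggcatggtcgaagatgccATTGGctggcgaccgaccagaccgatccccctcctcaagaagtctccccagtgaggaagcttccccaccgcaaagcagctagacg
Fdps: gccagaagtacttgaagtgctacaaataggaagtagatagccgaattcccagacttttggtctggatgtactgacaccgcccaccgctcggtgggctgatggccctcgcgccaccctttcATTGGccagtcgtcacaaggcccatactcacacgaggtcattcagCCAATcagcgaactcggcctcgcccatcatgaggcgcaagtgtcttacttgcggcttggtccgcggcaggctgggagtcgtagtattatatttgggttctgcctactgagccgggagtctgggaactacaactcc
Msmo1: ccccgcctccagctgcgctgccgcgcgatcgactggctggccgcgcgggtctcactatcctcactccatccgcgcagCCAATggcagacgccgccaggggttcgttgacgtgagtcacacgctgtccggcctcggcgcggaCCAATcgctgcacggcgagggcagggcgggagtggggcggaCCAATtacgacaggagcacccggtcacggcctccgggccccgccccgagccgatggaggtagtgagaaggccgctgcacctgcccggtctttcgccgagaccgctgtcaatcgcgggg
In the promoters of Vgf (chr12:25276971-25277270, minus strand), Scg2 (chr9:88256817-88257116, minus strand) and Egr4 (chr4:119607768-119608067, minus strand), which are activity-regulated, capitals mark TGACG on either strand, which reads CGTCA on the other strand and forms the full element where both overlap.
Vgf: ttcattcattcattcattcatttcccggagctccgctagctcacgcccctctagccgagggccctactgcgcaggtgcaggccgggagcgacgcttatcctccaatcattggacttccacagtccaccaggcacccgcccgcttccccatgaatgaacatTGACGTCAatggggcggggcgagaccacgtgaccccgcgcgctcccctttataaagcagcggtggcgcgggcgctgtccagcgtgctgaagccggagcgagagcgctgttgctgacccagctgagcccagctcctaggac
Scg2: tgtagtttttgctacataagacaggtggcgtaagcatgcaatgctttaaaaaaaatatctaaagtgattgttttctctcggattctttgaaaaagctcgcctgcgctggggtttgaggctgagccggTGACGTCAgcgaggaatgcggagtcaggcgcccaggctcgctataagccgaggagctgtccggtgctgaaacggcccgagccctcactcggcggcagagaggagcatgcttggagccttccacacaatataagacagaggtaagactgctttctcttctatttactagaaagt
Egr4: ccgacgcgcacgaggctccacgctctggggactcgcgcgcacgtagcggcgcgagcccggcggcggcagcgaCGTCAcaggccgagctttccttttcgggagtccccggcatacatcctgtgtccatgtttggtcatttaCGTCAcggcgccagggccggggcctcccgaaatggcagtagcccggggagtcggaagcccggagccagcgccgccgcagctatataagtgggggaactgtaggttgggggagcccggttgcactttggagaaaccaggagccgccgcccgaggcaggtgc
All genes of the first set fell, with log2 fold changes of -0.55 for Idi1, -0.32 for Fdps and -0.38 for Msmo1. Those of the second set did not move together, since Egr4 rose (2.63), Vgf rose (0.59) and Scg2 fell (-0.77) although all windows hold TGACG.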

How the data were processed

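RNA of primary rat cortical neuron cultures was converted to cDNA with a SMART-Seq kit, which does not mark the strand, and sequenced in 30 libraries. The authors aligned reads to Rnor_6.0 and the vector by STAR (2.5.2b) and estimated counts by RSEM (1.2.31). The signal values are read counts that the authors divided by 1 DESeq2 size factor per library before they were deposited. The headings name PBS, and other libraries, not analysed here, may have entered these factors. Whole reads were recovered for 100% of values within a tolerance of 0.01 of a read. Reads come from amplified cDNA and are not independent molecules. With 4747019 to 6961621 recovered reads over genes in each EV library of days 6 and 12 and 5 libraries a group, slight differences in weakly expressed genes were not detectable.

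The table held normalized counts of 32883 genes and 2 vectors. Of 20634 genes with any read, 12911 reached a normalized count of 10 in 5 or more libraries and were tested on log2(normalized count + 1) with limma 3.58.1 (R 4.3.3), with 1 mean for each of 6 groups over all 30 libraries and a trended empirical Bayes prior. Tests were two-sided, with Benjamini-Hochberg adjustment over the 12911 genes and a threshold of 0.05. The procedure was tested on simulated data. Library measures were compared by exact permutation. The comparison, the 42 gene lists, the 18 pairs, the motifs and the rule for named genes were chosen with earlier results of these data known. The text names the 12 genes that changed most in each direction among called genes without overlap and with a mean of at least 50, the 3 members of each list with the smallest adjusted p in each direction, the members of pairs, the 6 with the largest difference between intervals in each direction and a set of key markers. Results of 10 named genes, and of 2 of the pairs, are not reported here, and counts over lists include them. List symbols missing from the table were left out, and lists were described without a test. Replicate numbers did not pair the libraries, since correlations of same-numbered libraries lay between -0.056 and 0.0522. Alternatives were edgeR 4.0.16 (TMM, quasi-likelihood) and DESeq2 1.42.0 on recovered reads, pseudocounts of 0.5 and 5, no filter, a stricter filter at a normalized count of 50, scaling by totals or by upper quartiles, the compared groups alone, the replicate block, and each library left out. Promoters came from RefSeq (GRCr8). Other steps used Python 3.11.15 with scipy 1.17.1, pandas 2.3.3, matplotlib 3.10.9 and numpy 2.4.6.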

Additional observations from a re-analysis of the deposited data

Results flagged for a closer look

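In 8 of the 158 groups of 5 libraries examined, 1 library lay farther from the rest than Dixon's critical value of 0.71 allows, which chance does in about 1 of 20 groups. The empty vector had a normalized count of 2628 in day 6 replicate 4, the highest of its group. Hpca was highest at day 6 in replicate 1, with 281.2, in a group with a narrow spread. Reln was highest at day 12 in replicate 1, also with 281.2, and Rnf152 in the same library, with 89.17. Id3 was highest at day 12 in replicate 5 (462.3), where Bdnf was lowest (89.56). Gdf1 was highest at day 6 in replicate 4 (388.3), and Cdkn1c in replicate 5 (323.3). No library held more than 2 of these values.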

How the results depend on the processing

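Of the 286 named genes tested, 271 were called, and none of them changed direction under any alternative run. Of these, 18 lost the call in at least 1 alternative. The counts of genes higher and lower at day 12 were 3013 and 2732, and with single libraries left out they were 2810 to 2941 and 2496 to 2607. Replicate numbers did not pair the libraries, and with the replicate block the counts were 3021 and 2747. With only the groups compared in the fit, the counts were 2810 higher and 2616 lower. On recovered reads edgeR called 2959 and 2762 and DESeq2 2891 and 2697. Equal totals gave 2847 higher and 2939 lower, so that 49.2% of calls were higher, against 52.4% in the values as deposited, and no scaling moved the median of all genes by more than 0.02 on the log2 scale. Changes of 2-fold or more depended on low counts. The 458 genes higher by 2-fold or more became 303 with a pseudocount of 5 and 267 with a smallest normalized count of 50, and the 151 lower became 100 and 84. The larger pseudocount shrinks folds of low genes, and the stricter filter removes them. The change differed between 3K and EV for 0 genes, for 1 with the replicate block (Prnp), for 4 by DESeq2 (Prnp, Klhl2, Rbm12 and Wbp11), and for 0 to 1 with single libraries left out, where Gdf1 was called without EV day 12 replicate 4 and Prnp without EV day 12 replicate 5. The DESeq2 log2 differences were -0.302 for Prnp and -0.276 for Klhl2, but 31.3 for Rbm12 and -19.9 for Wbp11. The last 2 lie far beyond any change called in EV by limma (-5.05 to 4.49) and are not read as real. The cause was not tested.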
